A study of Mus musculus with 16 samples.

Results

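Immediate early genes and heat shock genes were examined in RNA-seq profiles of microglia sorted from 16 mouse brains. The members were 34 genes named by symbol, 25 of them early-response genes and 9 of them chaperones. Nr4a3 was not analysed here, and 33 members had values. A member was tested when it reached 1 CPM (counts scaled to 1000000 assigned reads per library) in at least 4 of the 16 libraries, which kept 21 early-response genes and 8 chaperones, 29 in all, among 13912 tested genes. The 4 members under that level were Egr3, Nr4a2, Gadd45b and Hspb1.

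The study asked whether microglia that lack p38α (Mapk14), a stress-activated kinase, respond differently in a mouse model of Alzheimer's disease (AD). There were 4 groups of 4 mice, all C57BL/6J, all homozygous for a floxed p38 allele (p38fl/fl) and all fed tamoxifen chow (400 ppm) over 4 weeks that began when they were 5 months old, and brains were collected at 11 months. By the study's methods, mice of all groups swam in a radial arm water maze at about 11 months and were killed immediately afterward. The effect of the swimming on the genes examined here was not tested. AD p38KO mice carried APPswe/PS1dE9+/- together with Cx3cr1-creERT2+/-, and AD p38+/+ mice carried APPswe/PS1dE9+/- without the Cre (Cx3cr1-creERT2-/-). WT p38KO mice were APPswe/PS1dE9-/- with Cx3cr1-creERT2+/-, and WT p38+/+ mice were APPswe/PS1dE9-/- and Cx3cr1-creERT2-/-. The Cre sits in the Cx3cr1 gene, so loss of p38α and the presence of the Cre allele with its missing Cx3cr1 copy cannot be told apart in any p38KO against p38+/+ comparison. For each genotype 6 mice were processed and the 4 RNA samples of best integrity were sequenced, from about 10000 cells per mouse that carried CD11b and P2ry12.

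Immediate early genes are transcribed within minutes of a stimulus by factors that already sit in the cell, among them CREB, SRF with its ELK partners and NF-κB. Kinases downstream of p38α, including MSK1 and MSK2, phosphorylate some of these factors, and several early genes (Dusp1, Zfp36) encode proteins that switch the same signals off again. Heat shock chaperones are controlled mainly by HSF1 and keep proteins folded, and both sets of genes are known to respond in microglia to injury, to activation and to the isolation of the cells itself.

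The step that 1 read makes among the low values of a library put the depth at 12.3 to 16.4 reads per CPM, so 3 reads were worth 0.183 to 0.244 CPM. In AD p38KO libraries 15470 to 16840 genes were detected, against 16976 to 18040 in the other 12 libraries. The labels of genotype were checked first. Mapk14-202, the transcript with the deleted exon 1, stood at 0.0575 to 0.248 CPM in the 8 p38KO libraries, against 47.1 to 82.6 CPM in the 8 p38+/+ libraries, and Cx3cr1 at 2978 to 4061 CPM against 5639 to 9296 CPM. One label of sex was met by only part of the data, that of the library labeled AD p38KO mouse 1, which is labeled female. Its Xist was listed at 0, against 188 to 254 CPM in the other 4 libraries labeled female. Its 4 Y-linked genes were also listed at 0, against a sum of 107.9 to 182.3 CPM in the 11 libraries labeled male. Xist thus went against the label of this library, and the Y-linked genes went with it. Members that passed, or that had an unadjusted p under 0.05 between AD p38KO and AD p38+/+, are given with and without this library in the comparison concerned. Microglia markers summed to 55754 to 67961 CPM in every library, neuron markers to 0.271 to 6.02 CPM and lymphocyte markers to at most 1.203 CPM. Astrocyte markers summed to 146 to 277 CPM, oligodendrocyte markers to 182 to 271 CPM, border-associated macrophage markers to 19.9 to 124 CPM, endothelial and mural markers to 16.8 to 47.7 CPM and monocyte and granulocyte markers to 3.83 to 25.2 CPM. Red blood cell genes summed to 0.0801 to 467 CPM in AD p38KO, 0.212 to 12.9 CPM in AD p38+/+, 0.867 to 364 CPM in WT p38KO and 0.0614 to 3.99 CPM in WT p38+/+ libraries.

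The promoters of 6 members are printed because the results turn on Egr2, Dusp1, Jun and Fos among the early-response genes and on the near-identical pair Hspa1a and Hspa1b among the chaperones. Each sequence is the 250 bases before the RefSeq transcription start (GRCm38.p6), 5′ to 3′ on the strand of the gene. Capitals mark matches to TGACGT (the shared core of CREB and ATF sites, either strand), TATAAA (given strand), the CArG box (the SRF element, either strand) and GAANNTTC (a pair of inverted HSF1 half-sites). The windows are chr10:67537619-67537868 (+) for Egr2, chr12:85473640-85473889 (+) for Fos, chr4:95052223-95052472 (-) for Jun, chr17:26508473-26508722 (-) for Dusp1, chr17:34972157-34972406 (-) for Hspa1a and chr17:34959239-34959488 (-) for Hspa1b.
Egr2: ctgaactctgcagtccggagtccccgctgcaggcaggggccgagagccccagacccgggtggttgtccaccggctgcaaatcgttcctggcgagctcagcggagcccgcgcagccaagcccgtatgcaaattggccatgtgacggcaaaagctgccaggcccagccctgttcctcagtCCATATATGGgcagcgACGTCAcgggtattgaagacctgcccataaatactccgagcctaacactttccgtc
Fos: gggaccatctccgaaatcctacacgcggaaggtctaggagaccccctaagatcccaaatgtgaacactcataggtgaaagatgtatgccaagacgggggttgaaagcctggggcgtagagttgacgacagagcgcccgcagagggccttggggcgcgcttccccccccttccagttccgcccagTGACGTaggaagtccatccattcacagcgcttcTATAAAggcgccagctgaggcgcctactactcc
Jun: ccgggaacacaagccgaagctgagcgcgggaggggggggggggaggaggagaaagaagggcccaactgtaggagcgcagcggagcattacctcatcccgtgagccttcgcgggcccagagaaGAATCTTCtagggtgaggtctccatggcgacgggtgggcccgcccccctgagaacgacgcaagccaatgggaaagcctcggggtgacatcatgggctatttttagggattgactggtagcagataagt
Dusp1: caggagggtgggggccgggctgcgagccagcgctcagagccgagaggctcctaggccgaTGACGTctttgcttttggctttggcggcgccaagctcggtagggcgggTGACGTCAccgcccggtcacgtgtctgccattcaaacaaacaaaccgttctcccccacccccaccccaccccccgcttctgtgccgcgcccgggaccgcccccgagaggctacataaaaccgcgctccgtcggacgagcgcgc
Hspa1a: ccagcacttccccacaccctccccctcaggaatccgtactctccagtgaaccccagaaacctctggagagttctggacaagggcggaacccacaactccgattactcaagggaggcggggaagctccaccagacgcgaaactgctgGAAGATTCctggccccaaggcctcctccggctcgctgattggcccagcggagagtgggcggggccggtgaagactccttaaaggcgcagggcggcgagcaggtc
Hspa1b: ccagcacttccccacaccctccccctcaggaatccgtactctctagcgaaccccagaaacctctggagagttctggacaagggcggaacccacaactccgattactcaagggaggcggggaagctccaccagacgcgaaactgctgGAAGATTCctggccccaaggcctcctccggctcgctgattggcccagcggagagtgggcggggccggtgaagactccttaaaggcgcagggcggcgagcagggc

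In these windows Egr2 had a CArG box 72 to 63 bases before the start and TGACGT on the reverse strand 56 to 51 bases before it. Fos had TGACGT at 66 to 61 bases and TATAAA at 33 to 28 bases before the start. Dusp1 had TGACGT at 191 to 186 and at 143 to 138 bases, the second of which overlapped a reverse-strand match at 141 to 136 bases. The Jun window held GAANNTTC at 128 to 121 bases before the start. Hspa1a and Hspa1b shared 1 GAANNTTC match at the same place and differed at 3 of 250 bases.

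RefSeq promoters were found for 27 of the 34 members, 21 early-response genes and 6 chaperones, and not for Egr1, Egr3, Ier2, Nfkbiz, Hsp90aa1, Hsp90ab1 and Hspa8. TGACGT was present in 7 of 21 early-response genes (33.3%) and 0 of 6 chaperones, against 7.29% of 27025 genes with a window of the same length. GAANNTTC was present in 4 of 6 chaperones (66.7%) and 2 of 21 early-response genes, against 7.73% of all genes. The CArG box was present in Egr2 and Zfp36, 9.52% of the early-response genes against 1.62% of all genes. TATAAA was present in Fos and Gadd45b, 9.52% against 8.94%. A match describes letters in the window only.

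The clearest difference among the members was in Egr2, a zinc finger transcription factor of the EGR family (ENSMUSG00000037868, mm10 chromosome 10, 67535475 to 67542188). In AD p38KO mice 1 to 4 it stood at 22.7, 13.3, 16.6 and 21.2 CPM, and in AD p38+/+ mice at 16.3, 7.03, 11.2 and 3.19 CPM. WT p38KO mice had 1.95, 7.22, 1.73 and 5.16 CPM, and WT p38+/+ mice had 3.12, 4.08, 0.987 and 0.450 CPM. All 4 AD p38KO mice lay above all 8 WT mice, whereas AD p38+/+ mice 2 and 4 fell within the WT range. Group means were 18.5 ± 4.32 CPM in AD p38KO, 9.42 ± 5.61 CPM in AD p38+/+, 4.02 ± 2.65 CPM in WT p38KO and 2.16 ± 1.72 CPM in WT p38+/+ (SD, n = 4 each).

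Over both p38 genotypes Egr2 rose in AD mice relative to WT mice, by 2.10 (SE 0.380, 95% interval 1.304 to 2.902) on the log2(CPM + 0.5) scale, a scale that understates changes of genes near 0 (limma, Benjamini-Hochberg adjusted p = 0.00669 over 13912 genes). It was the only member of 29 to pass in this comparison, where 1.03% of all genes tested passed. Without the library labeled AD p38KO mouse 1 the difference was 2.05 (adjusted p = 0.0176). Within each p38 genotype the difference was 2.24 between AD p38KO and WT p38KO (SE 0.537, adjusted p = 0.0993, groups not overlapping, 2.13 with adjusted p = 0.227 without the library labeled AD p38KO mouse 1) and 1.97 between AD p38+/+ and WT p38+/+ (SE 0.537, adjusted p = 0.221, groups overlapping), neither of which passed. In bulk samples more Egr2 per cell and more cells with Egr2 cannot be told apart.

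The difference in Egr2 between AD p38KO and AD p38+/+, and that between WT p38KO and WT p38+/+, did not pass either. Over both backgrounds Egr2 was 0.98 higher in p38KO than in p38+/+ (adjusted p = 0.788). The protein-coding transcript Egr2-201 was the 1 member transcript of 56 to pass in any comparison: it rose by 2.52 in AD relative to WT mice over both p38 genotypes (limma adjusted p = 0.0211 over 34323 transcripts, of which 0.379% passed). This call was lost with a pseudocount of 0.1, without AD p38KO mouse 1 (2.47, adjusted p = 0.0531) and without AD p38+/+ mouse 1 or 3 or WT p38+/+ mouse 3 or 4. Egr2-201 stood at 22.5, 12.5, 16.3 and 21.2 CPM in AD p38KO mice, 15.9, 6.18, 10.7 and 1.96 CPM in AD p38+/+ mice, 1.95, 6.12, 0.00725 and 2.49 CPM in WT p38KO mice and 1.28, 4.05, 0.978 and 0.442 CPM in WT p38+/+ mice. For the transcript, too, all 4 AD p38KO mice lay above all 8 WT mice. Egr2-201 held most of the Egr2 CPM in every AD mouse, but not in WT p38KO mice 3 and 4 or WT p38+/+ mouse 1.

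**Figure D1:**
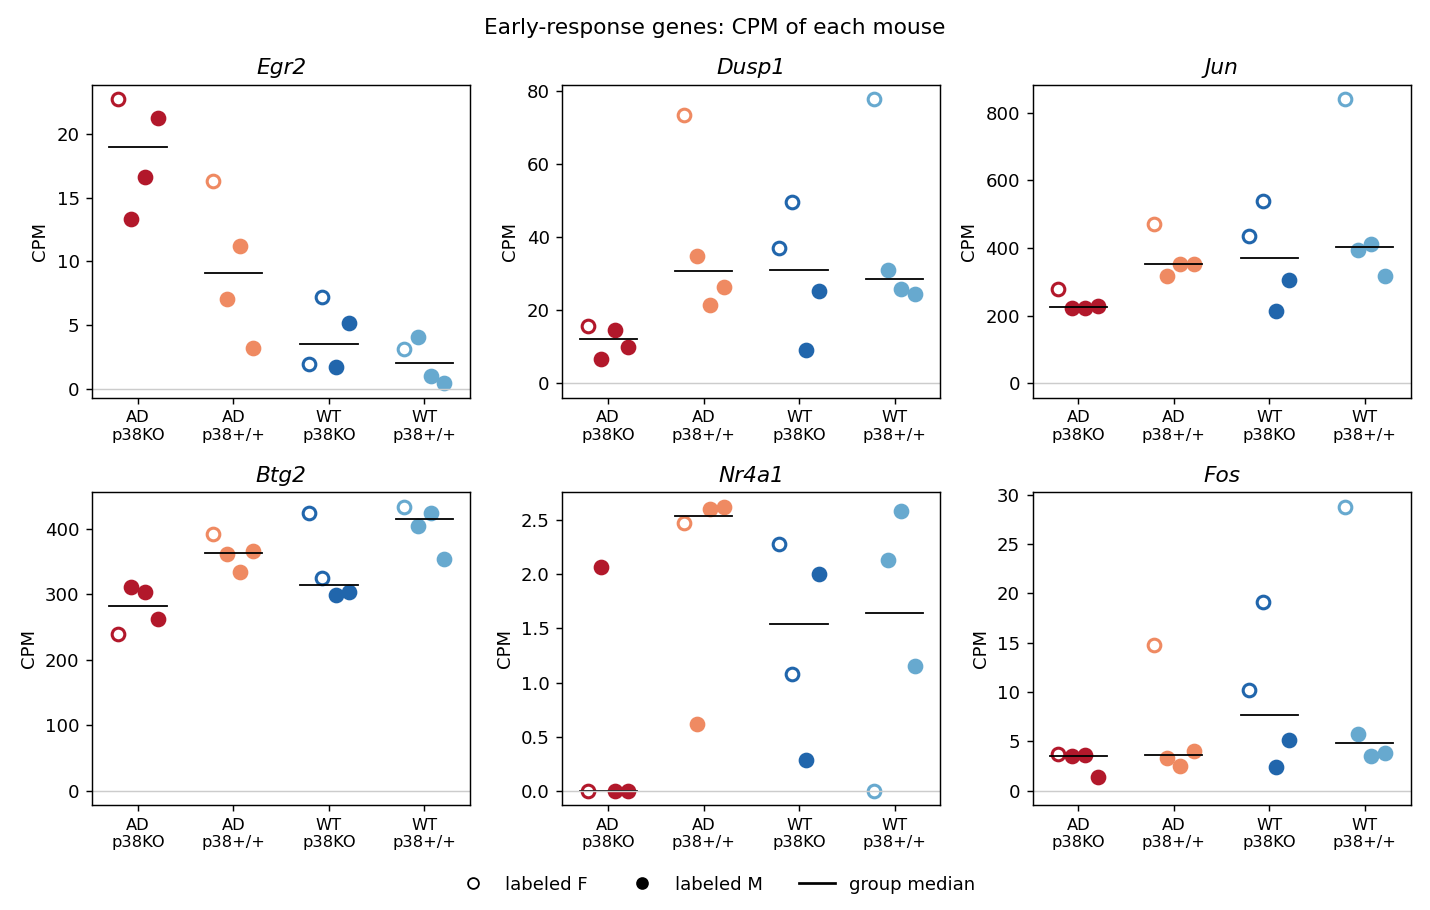
CPM of early-response members in every mouse, by group (AD p38KO, AD p38+/+, WT p38KO, WT p38+/+ from left to right), with open circles for mice labeled female, filled circles for mice labeled male and a line at the group median. Egr2 lies at 13.3 to 22.7 CPM in AD p38KO mice and at 7.22 CPM or less in all WT mice, and Dusp1 lies at 15.8 CPM or less in AD p38KO mice and at 21.3 CPM or more in AD p38+/+ mice.

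The other EGR and AP-1 factors did not pass in any of the 7 comparisons. Egr1, the zinc finger factor that is induced alongside Fos by SRF and ELK, had 21.7, 13.8, 9.71 and 19.2 CPM in AD p38KO mice and 15.3, 8.21, 17.0 and 13.6 CPM in AD p38+/+ mice. WT p38KO mice had 10.3, 25.4, 1.44 and 9.67 CPM, and WT p38+/+ mice had 9.28, 9.55, 2.96 and 5.46 CPM. The highest and the lowest of the 16 values were both in WT p38KO mice, and AD and WT values overlapped. The Egr1 difference between AD and WT mice over both p38 genotypes was 0.95 (limma adjusted p = 0.343). Egr3, of the same family, was at 0 in 8 libraries, all 4 WT p38+/+ libraries among them, and reached 1.00 CPM at most, in WT p38KO mouse 4.

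Fos, an AP-1 subunit (chromosome 12, 85473890 to 85477273), varied widely among mice of a group. It had 3.76, 3.50, 3.65 and 1.42 CPM in AD p38KO mice, against 14.7, 3.31, 2.53 and 4.04 CPM in AD p38+/+ mice. In WT p38KO mice it had 10.2, 19.1, 2.45 and 5.16 CPM, against 28.8, 5.78, 3.49 and 3.86 CPM in WT p38+/+ mice. The 4 highest values belonged to AD p38+/+ mouse 1, WT p38KO mice 1 and 2 and WT p38+/+ mouse 1, and all groups overlapped. The Fos difference between AD p38KO and AD p38+/+ was -0.64 (95% interval -2.02 to 0.74), and between WT p38KO and WT p38+/+ it was 0.03 (95% interval -1.35 to 1.41). The within-group SD of Fos on the log2 scale was at the percentile 96.2 of all genes tested, and those of Fosb and Nr4a1 at 94.5 and 94.6.

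Jun, the DNA-binding partner of Fos (chromosome 4, 95049034 to 95052222), was among the most abundant members by CPM. It had 280, 223, 221 and 229 CPM in AD p38KO mice, against 469, 318, 353 and 352 CPM in AD p38+/+ mice. WT p38KO mice had 435, 539, 214 and 304 CPM, against 840, 393, 413 and 317 CPM in WT p38+/+ mice. All AD p38KO mice lay below all AD p38+/+ mice, while the WT groups overlapped. The Jun difference in AD mice was -0.64 (SE 0.269, limma adjusted p = 0.682, exact permutation p = 0.0286, the smallest that 4 against 4 can give), and -0.72 (adjusted p = 0.607) without the library labeled AD p38KO mouse 1. Over both backgrounds it was -0.51 (adjusted p = 0.775).

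The remaining AP-1 and related factors did not pass in any comparison. Fosb ran over 0 to 9.78 CPM, Fosl2 over 5.21 to 17.9 CPM, Junb over 206 to 360 CPM, Jund over 94.0 to 203 CPM and Atf3, a stress-induced member of the ATF and CREB family, over 10.8 to 61.1 CPM. The highest Atf3 value was that of AD p38KO mouse 4. Fosb reads were listed for the retained-intron transcript Fosb-204 alone, and its other forms were not analysed here. Nr4a1, an orphan nuclear receptor that restrains inflammatory transcription, had 0, 2.07, 0 and 0 CPM in AD p38KO mice and 2.48, 0.621, 2.60 and 2.62 CPM in AD p38+/+ mice, with 2.28, 1.08, 0.288 and 2.01 CPM in WT p38KO mice and 0, 2.13, 2.58 and 1.16 CPM in WT p38+/+ mice. Its AD values overlapped through mouse 2 of each group (-1.66, SE 0.643, adjusted p = 0.664, exact permutation p = 0.0571), and without the library labeled AD p38KO mouse 1 the difference was -1.47 (adjusted p = 0.642). Nr4a1 was at 0 in 4 libraries and above the level of 3 reads in every other library. Nr4a2, of the same family, reached 0.797 CPM at most.

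Among the early-response regulators, Dusp1 and Btg2 had lower values in AD p38KO than in AD p38+/+ mice, without passing the adjusted test. Dusp1 is a phosphatase that removes the activating phosphates of p38 and JNK (ENSMUSG00000024190, chromosome 17, 26505590 to 26562128). It had 15.8, 6.68, 14.4 and 9.95 CPM in AD p38KO mice, against 73.3, 34.8, 21.3 and 26.5 CPM in AD p38+/+ mice. In WT p38KO mice it had 36.9, 49.5, 9.07 and 25.4 CPM, against 77.7, 31.1, 25.8 and 24.4 CPM in WT p38+/+ mice. Every AD p38KO mouse lay below every AD p38+/+ mouse, and the WT groups overlapped. The Dusp1 difference in AD mice was -1.60 (SE 0.482, 95% interval -2.61 to -0.58, limma adjusted p = 0.450), and without the library labeled AD p38KO mouse 1 it was -1.76 (adjusted p = 0.437). The interaction, the Dusp1 difference in AD mice minus that in WT mice, was -1.15 (SE 0.682, adjusted p = 1.00), so the AD and WT differences were not shown to be unequal.

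Most Dusp1 reads were assigned to 2 transcripts with a retained intron, Dusp1-203 and Dusp1-204, which held 48.6% (AD p38KO mouse 4) to 96.5% (WT p38+/+ mouse 3) of Dusp1 CPM. Dusp1-203 had 9.14, 2.79, 9.36 and 3.94 CPM in AD p38KO mice, against 50.8, 21.7, 13.9 and 19.3 CPM in AD p38+/+ mice (-1.97, adjusted p = 0.357 over transcripts). The protein-coding Dusp1-202 had 3.60, 1.90, 2.59 and 4.97 CPM in AD p38KO mice, against 4.67, 2.83, 3.66 and 1.65 CPM in AD p38+/+ mice (0.03, adjusted p = 0.993). The 2 groups were apart for the retained-intron transcript and overlapped for the protein-coding one. The difference between the transcripts was not tested, and assignment of reads between transcripts that share exons is an estimate.

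**Figure D2:**
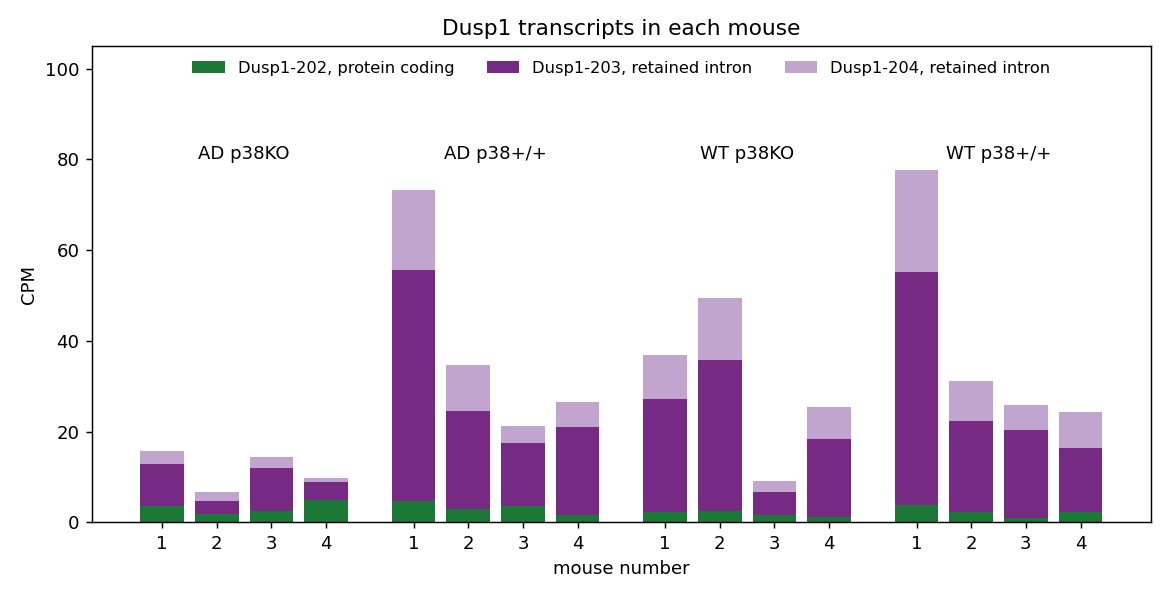
CPM of Dusp1 transcripts in every mouse, by group from AD p38KO on the left to WT p38+/+ on the right. Retained-intron Dusp1-203 lies at 2.79 to 9.36 CPM in AD p38KO mice and at 13.9 to 50.8 CPM in AD p38+/+ mice, while protein-coding Dusp1-202 stays between 0.915 and 4.97 CPM in all 16 mice.

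Btg2, an antiproliferative protein that recruits the CCR4-NOT deadenylase to mRNAs (chromosome 1, 134075170 to 134079120), varied little within groups. It had 240, 311, 304 and 262 CPM in AD p38KO mice, against 392, 361, 335 and 367 CPM in AD p38+/+ mice. In WT p38KO mice it had 424, 326, 299 and 304 CPM, against 434, 405, 424 and 354 CPM in WT p38+/+ mice. The AD groups did not overlap, and among WT p38KO mice only mouse 1 lay within the WT p38+/+ range, with the other 3 below it. The Btg2 difference was -0.39 in AD mice (SE 0.116, 95% interval -0.63 to -0.14, limma adjusted p = 0.450, and -0.32 with adjusted p = 0.575 without the library labeled AD p38KO mouse 1), -0.27 in WT mice (adjusted p = 1.00) and -0.33 over both backgrounds (SE 0.0824, adjusted p = 0.365). Its within-group SD was at the percentile 9.53 of all genes tested.

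Socs3, an inhibitor of JAK-STAT signaling that is itself induced by STAT3, had 59.0, 57.6, 62.2 and 55.7 CPM in WT p38KO mice, against 52.8, 51.8, 51.5 and 29.9 CPM in WT p38+/+ mice. In AD p38KO mice it had 48.5, 53.6, 53.6 and 57.9 CPM, against 47.3, 46.3, 57.0 and 53.9 CPM in AD p38+/+ mice. The WT groups did not overlap, and the low value of WT p38+/+ mouse 4 lay far below the other 3 of its group. The Socs3 difference in WT mice was 0.37 (SE 0.158, limma adjusted p = 1.00) and 0.17 (adjusted p = 0.999) without that mouse, and in AD mice it was 0.06 (95% interval -0.27 to 0.40).

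Zfp36 (tristetraprolin), which binds AU-rich mRNAs, promotes their decay and is phosphorylated in the p38 and MK2 pathway, had 145, 168, 173 and 159 CPM in AD p38KO mice, against 227, 172, 150 and 194 CPM in AD p38+/+ mice. It had 198, 175, 176 and 162 CPM in WT p38KO mice, against 273, 282, 182 and 121 CPM in WT p38+/+ mice. Both pairs of groups overlapped, with differences of -0.19 in AD mice (95% interval -0.61 to 0.23) and -0.19 in WT mice (95% interval -0.62 to 0.23). Rhob, a small GTPase of endosomes and the actin skeleton and the early-response member of highest mean CPM, had 514, 498, 548 and 459 CPM in AD p38KO mice and 445, 497, 454 and 515 CPM in AD p38+/+ mice. WT p38KO mice had 528, 441, 621 and 487 CPM, and WT p38+/+ mice had 507, 487, 499 and 423 CPM. Rhob overlapped in every comparison, and its within-group SD was at the percentile 4.61 of all genes tested.

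The other regulators gave no adjusted p under the threshold. Ier5, an early-response protein that modulates HSF1 in human cells, ran over 178 to 296 CPM, Ier2 over 16.2 to 56.7 CPM and Ier3 over 3.38 to 11.8 CPM. The NF-κB inhibitor Nfkbia ran over 83.9 to 136 CPM and its relative Nfkbiz, a nuclear cofactor, over 3.17 to 16.4 CPM. Ppp1r15a (GADD34), which lets translation resume after the stress response, ran over 15.9 to 30.5 CPM. Gadd45b, a growth arrest and DNA damage response gene, reached 1.47 CPM at most and stood at or under the level of 3 reads in 9 libraries.

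Between AD p38KO and AD p38+/+, 8 of 21 early-response members were higher and 13 lower, with a median of -0.12, against -0.02 over all genes tested. Between AD p38KO and WT p38KO 5 were higher and 16 lower (median -0.16, against -0.04), between WT p38KO and WT p38+/+ 9 and 12 (median -0.05, against 0.02) and between AD p38+/+ and WT p38+/+ 10 and 11 (median 0.00, against -0.01). No member passed by limma between AD p38KO and AD p38+/+, where 0.0503% of all genes passed. At an unadjusted p under 0.05, 4 members were lower (Btg2, Dusp1, Nr4a1 and Jun), against 4.66% of all genes in that direction. Jun, Btg2 and Dusp1 were lower with no overlap, 3 of 29 members, against 2.02% of all genes. No member was higher with no overlap, against 184 of the 13912 genes tested. Without the library labeled AD p38KO mouse 1, 8 of 21 early-response members were again higher (median -0.13, against -0.02 over all genes). In that fit 3 were lower at an unadjusted p under 0.05, and the share of all genes at that level was not counted.

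Between WT p38KO and WT p38+/+ no member passed, against 0.00719% of all genes, and 2 of 29 had an unadjusted p under 0.05 (Btg2 lower, Socs3 higher), against 3.53% of all genes. Socs3 was the 1 member without overlap, against 2.72% of all genes. Between AD p38KO and WT p38KO no member passed, against 0.323%. There 4 members had an unadjusted p under 0.05, Egr2 and Atf3 higher, Dusp1 and Btg2 lower, against 9.56% of all genes, and Egr2 alone did not overlap, against 4.93%. Between AD p38+/+ and WT p38+/+ no member passed, against 0.359%, Egr2 alone had an unadjusted p under 0.05, against 7.11%, and every member overlapped, against 5.23% without overlap. AD p38KO and AD p38+/+ mice each enter 2 of these comparisons, and so do WT p38KO and WT p38+/+ mice. For p38KO against p38+/+ over both backgrounds no member passed, against 0.0791%, and Btg2, Dusp1 and Jun (lower) and Egr2 (higher) had an unadjusted p under 0.05, against 5.9%. For AD against WT over both p38 genotypes, Egr2 and Egr1 (higher) and Btg2, Fosb and Jun (lower) had an unadjusted p under 0.05, 5 of 29, against 12% of all genes. For the interaction no member passed, against 0% of all genes, and none had an unadjusted p under 0.05, against 3.92%.

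**Figure D3:**
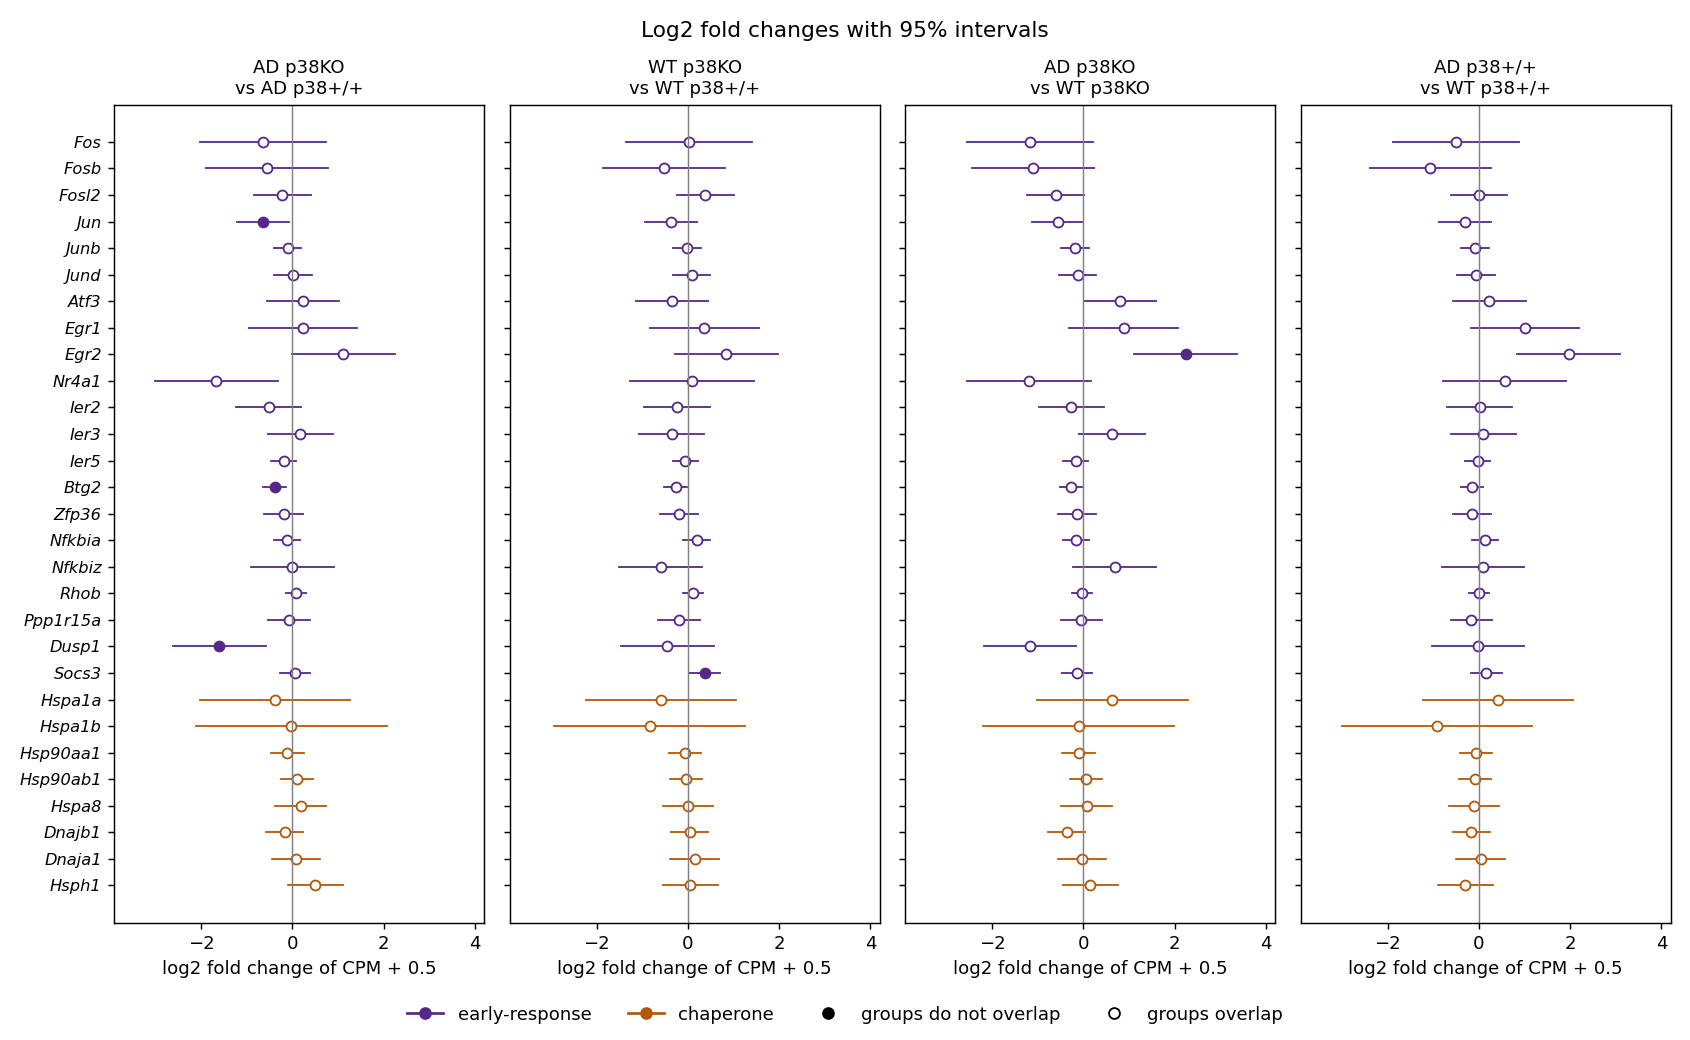
Difference on the log2(CPM + 0.5) scale with its 95% interval for 29 members (purple for early-response genes, orange for chaperones) in 4 comparisons, with filled points where the 2 groups of 4 mice did not overlap. Egr2 lies at 2.24 for AD p38KO against WT p38KO, and Dusp1, Jun and Btg2 lie at -1.60, -0.64 and -0.39 for AD p38KO against AD p38+/+, all filled.

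None of the 8 chaperones tested passed in any of the 7 comparisons by limma, no unadjusted p was under 0.05, and the groups overlapped for every one of them in the pairwise comparisons. Between AD p38KO and AD p38+/+, 4 of 8 were higher, with a median of 0.03, against -0.02 over all genes. Without the library labeled AD p38KO mouse 1, 7 of 8 were higher, with a median of 0.11, against -0.02 over all genes. Between WT p38KO and WT p38+/+, 4 of 8 were higher (median -0.02, against 0.02 over all genes), between AD p38KO and WT p38KO 4 of 8 (median 0.01, against -0.04) and between AD p38+/+ and WT p38+/+ 2 of 8 (median -0.09, against -0.01). These WT p38+/+ comparisons turned on 1 library, WT p38+/+ mouse 1, as described next.

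Hspa8, the constitutive cytosolic HSP70 and the chaperone of highest CPM (chromosome 9, 40800984 to 40810087), had 699, 619, 732 and 602 CPM in AD p38KO mice and 746, 540.2, 532 and 536 CPM in AD p38+/+ mice. It had 607, 841, 617 and 493 CPM in WT p38KO mice, and 1374, 416, 534 and 502 CPM in WT p38+/+ mice. The value of WT p38+/+ mouse 1 was the highest of the 16, and the other 3 mice of that group were among the lower values. Hspa8 differed by 0.18 (95% interval -0.37 to 0.74) between AD p38KO and AD p38+/+, and by 0.01 (95% interval -0.55 to 0.56) between WT p38KO and WT p38+/+.

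Hsp90ab1, the constitutive cytosolic HSP90, had 331, 339, 268 and 262 CPM in AD p38KO mice and 316, 299.7, 248 and 253 CPM in AD p38+/+ mice, with 277, 349, 258 and 271 CPM in WT p38KO mice and 452, 267, 244 and 256 CPM in WT p38+/+ mice. Dnajb1, the HSP40 cochaperone that delivers clients to HSP70, had 56.5, 84.2, 94.5 and 97.3 CPM in AD p38KO mice and 81.4, 95.4, 84.8 and 105.3 CPM in AD p38+/+ mice, with 129, 91.5, 106.7 and 96.4 CPM in WT p38KO mice and 149, 77.7, 95.1 and 99.7 CPM in WT p38+/+ mice. In both genes WT p38+/+ mouse 1 was again the highest of the 16, and all groups overlapped.

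Hspa1a and Hspa1b encode the stress-inducible HSP70 in near-identical copies next to each other on chromosome 17 (34969190 to 34972156 and 34956436 to 34959238), so the split of reads between them is uncertain. Hspa1a had 0, 1.35, 1.32 and 5.34 CPM in AD p38KO mice, 1.61, 2.08, 2.88 and 1.03 CPM in AD p38+/+ mice, 1.06, 0, 0.995 and 0.944 CPM in WT p38KO mice and 10.6, 0.779, 0.105 and 0.514 CPM in WT p38+/+ mice. Hspa1b had 0.150, 0, 2.02 and 5.56 CPM in AD p38KO mice, 0.600, 1.08, 0.953 and 1.59 CPM in AD p38+/+ mice, 3.26, 1.16, 0 and 1.64 CPM in WT p38KO mice and 27.4, 0.795, 3.23 and 0 CPM in WT p38+/+ mice. Summed over the pair, the values were 0.151, 1.35, 3.34 and 10.9 CPM in AD p38KO mice, 2.21, 3.16, 3.84 and 2.62 CPM in AD p38+/+ mice, 4.31, 1.16, 0.995 and 2.58 CPM in WT p38KO mice and 37.97, 1.57, 3.34 and 0.514 CPM in WT p38+/+ mice. WT p38+/+ mouse 1 and AD p38KO mouse 4 stood above the other 14 mice in the sum. The within-group SDs of Hspa1a and Hspa1b were at the percentiles 98.8 and 99.8 of all genes tested.

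WT p38+/+ mouse 1 was likewise the highest for the remaining 3 chaperones tested. Hsp90aa1, the inducible cytosolic HSP90, ran over 62.4 to 115.5 CPM, Dnaja1, another HSP40, over 38.8 to 116.5 CPM and Hsph1, the HSP110 exchange factor of HSP70, over 11.1 to 31.1 CPM. Hspb1 (HSP27), a small heat shock protein phosphorylated by the p38-activated kinase MK2, had 0 CPM in all 4 AD p38KO mice, 0, 0.0691, 0.141 and 0 CPM in AD p38+/+ mice, 0, 0, 0.0721 and 0.0718 CPM in WT p38KO mice and 0, 0.358, 0 and 0 CPM in WT p38+/+ mice. It was at or under the level of 3 reads in 15 of 16 libraries, so no difference in it was detectable at this depth.

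**Figure D4:**
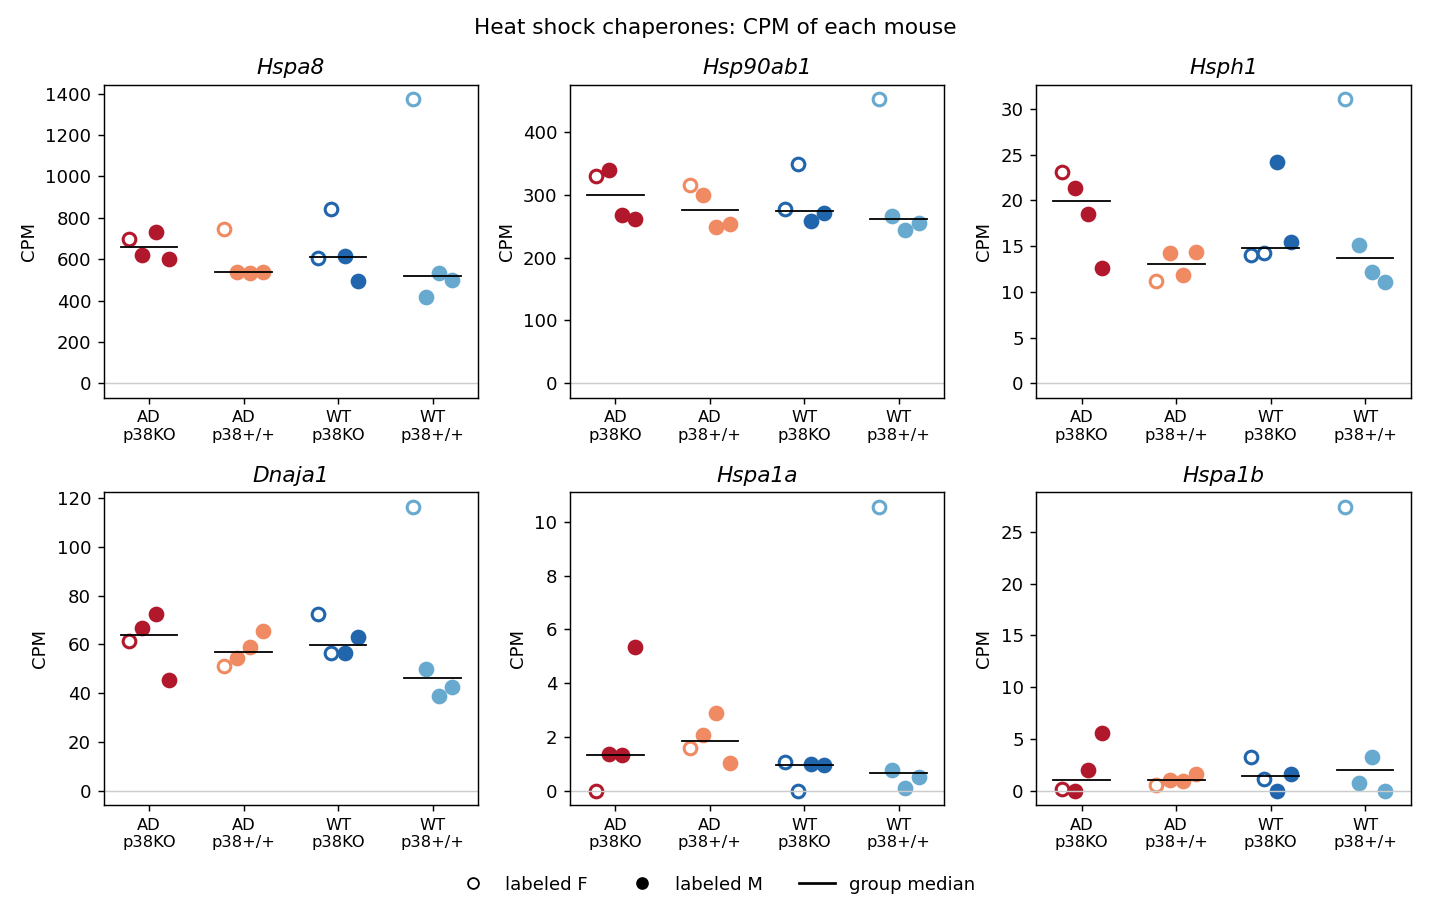
CPM of Hspa8, Hsp90ab1, Hsph1, Dnaja1, Hspa1a and Hspa1b in every mouse, by group from AD p38KO on the left to WT p38+/+ on the right. Open circles are mice labeled female, filled circles are mice labeled male and a line marks the group median. WT p38+/+ mouse 1 is the highest point for every chaperone shown, for example 1374 CPM against 416 to 841 CPM for Hspa8.

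WT p38+/+ mouse 1 was the highest of 16 libraries in 8 of 8 chaperones and in 10 of 21 early-response genes. Its median deviation from the mean of all libraries was 0.97 over the chaperones and 0.35 over the early-response genes on the log2 scale, against 0.02 over all genes. WT p38+/+ mouse 4 lay among the 4 lowest libraries in 7 of 8 chaperones and 14 of 21 early-response genes, with medians of -0.39 and -0.47, against -0.06 over all genes. Their depths, 13.8 and 15.6 reads per CPM, were within the range of the other libraries.

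Without WT p38+/+ mouse 1, chaperones were higher in 8 of 8 cases between WT p38KO and WT p38+/+, with a median of 0.28, against 0.01 over all genes. They were also higher in 8 of 8 cases between AD p38+/+ and WT p38+/+, with a median of 0.15, against -0.01 over all genes. None passed the adjusted test by limma in either comparison, and 2 and 1 of 8 had an unadjusted p under 0.05. The share of all genes at that level was not counted in this fit. With all mice the same comparisons had 4 and 2 of 8 higher, so the direction of the chaperones relative to WT p38+/+ depended on this mouse. Early-response genes were then higher in 16 of 21 cases between AD p38+/+ and WT p38+/+, with a median of 0.10, against -0.01 over all genes. Between WT p38KO and WT p38+/+ they were higher in 10 of 21 cases, with a median of -0.01, against 0.01 over all genes. WT p38+/+ mouse 1 was the only mouse labeled female in its group. Without it, genotype and labeled sex cannot be fully told apart in any comparison with WT p38+/+.

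**Figure D5:**
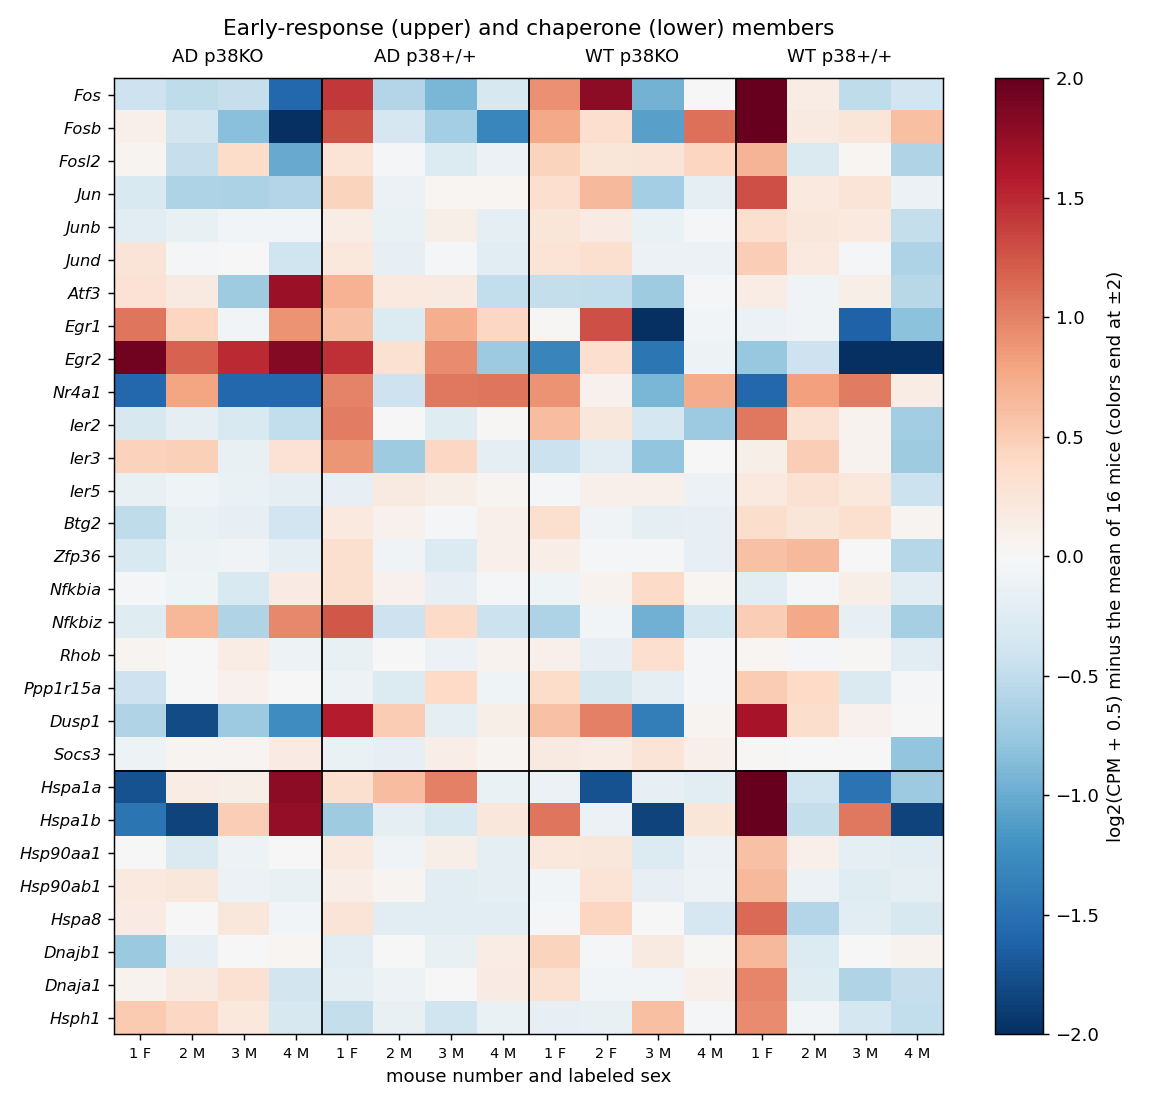
Deviation of each member from its mean over 16 libraries, on the log2(CPM + 0.5) scale with colors ending at -2 and 2, with members in rows by class and mice in columns by group from AD p38KO to WT p38+/+. WT p38+/+ mouse 1 stands out across the chaperones, with a median deviation of 0.97, and WT p38+/+ mouse 4 is low across both classes, with medians of -0.39 and -0.47.

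Some early-response genes differed between mice by labeled sex, a comparison made after their values had been seen. The groups held 1, 1, 2 and 1 mice labeled female (AD p38KO, AD p38+/+, WT p38KO and WT p38+/+), 5 in all, and 11 labeled male. Jun, Fos and Dusp1 separated the 4 other mice labeled female from the 11 labeled male: Jun had 435 to 840 CPM against 214 to 413 CPM, Fos 10.2 to 28.8 CPM against 1.42 to 5.78 CPM and Dusp1 36.9 to 77.7 CPM against 6.68 to 34.8 CPM. How many of all genes tested separated these mice in the same way was not counted. The library labeled AD p38KO mouse 1 had a label of sex that Xist went against and the Y-linked genes went with. For all 3 genes it lay within the range of the mice labeled male, at 280, 3.76 and 15.8 CPM. Egr2 did not follow this order, with 1.95 to 16.3 CPM in the 4 female-labeled mice and 0.450 to 21.2 CPM in males.

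With a sex term added to the group means, Jun was 0.73 higher in mice labeled female than in those labeled male (SE 0.120, limma adjusted p = 0.0274), 1 of 29 members to pass, against 0.0575% of all genes tested. That call was lost without any 1 of the other 4 mice labeled female (adjusted p = 0.0539 without AD p38+/+ mouse 1, 0.0873 and 0.135 without WT p38KO mouse 1 or 2, and 0.405 without WT p38+/+ mouse 1). Without the library labeled AD p38KO mouse 1, 4 members passed, against 0.101% of all genes: Fos (2.12, adjusted p = 0.00681), Jun (0.86, adjusted p = 0.00748), Ier2 (1.06, adjusted p = 0.0236) and Dusp1 (1.46, adjusted p = 0.0308). In that fit 17 of 21 early-response genes and 8 of 8 chaperones were higher in mice labeled female, with 9 and 3 at an unadjusted p under 0.05, against 4.08% of all genes. The chaperone count rested on 1 mouse: it was 4 of 8 (median 0.10) when WT p38+/+ mouse 1 was left out as well, and 3 of 8 (median -0.07) when that mouse alone was left out. When WT p38+/+ mouse 1 was left out as well, none of the members passed (Jun and Fos, adjusted p = 0.244), and the same held when WT p38KO mouse 2 was left out in its place (smallest adjusted p = 0.0513). Jun kept its call when the second mouse left out was AD p38+/+ mouse 1 (adjusted p = 0.00338) or WT p38KO mouse 1 (adjusted p = 0.0244). Whether sex or the handling of single mice moved these genes was not tested.

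The p38 comparisons were refitted with labeled sex as a covariate. With labeled sex as a covariate, Dusp1 fell by 1.18 (adjusted p = 0.0413) and Jun fell by 0.60 (adjusted p = 0.0449) in p38KO relative to p38+/+ mice over both backgrounds. When the library labeled AD p38KO mouse 1 was also left out, they were -1.11 (adjusted p = 0.0586) and -0.55 (adjusted p = 0.0594) and did not pass. Egr2 over both p38 genotypes kept its call in that setting (adjusted p = 0.00866). The share of all genes that passed in these refits is not given here, so the calls of Dusp1 and Jun have no background beside them.

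Genes near these pathways were described from lists of relatives. Of 46 listed relatives of the early-response genes, 33 were tested, and 3 rose in AD relative to WT mice over both p38 genotypes: Ccl3, Ccl4 and Bhlhe40, against 1.03% of all genes tested. Ccl3, a chemokine that attracts leukocytes, averaged 69.2 ± 39.8 CPM in AD p38KO, 74.3 ± 47.8 in AD p38+/+, 12.5 ± 7.49 in WT p38KO and 11.7 ± 6.89 in WT p38+/+ mice (SD, n = 4 each), a difference of 2.53 (adjusted p = 0.000811). Ccl4, its neighbor in the same cluster, averaged 47.1 ± 15.7, 51.5 ± 29.0, 11.7 ± 7.65 and 11.2 ± 2.98 CPM in the same groups, a difference of 2.07 (adjusted p = 0.000521). Both chemokines also passed within each p38 genotype, whereas Egr2 did not.

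Bhlhe40, a basic helix-loop-helix repressor, averaged 14.1 ± 4.07 CPM in AD p38KO, 11.2 ± 6.28 in AD p38+/+, 2.51 ± 2.39 in WT p38KO and 1.41 ± 1.55 in WT p38+/+ mice (SD, n = 4 each), a difference of 2.78 (adjusted p = 0.00242). Of 46 tested relatives of the heat shock genes (48 listed), none passed in any comparison by limma, and unadjusted p under 0.05 were found for 5 between AD and WT mice over both p38 genotypes, against 12% of all genes. The smallest p among them were those of Cdc37l1, an HSP90 cochaperone relative, at -0.59 between AD p38+/+ and WT p38+/+ (adjusted p = 0.207), and of Bag1, a nucleotide exchange factor of HSP70, at 0.34 between AD and WT mice over both p38 genotypes (adjusted p = 0.157).

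Of 25 upstream kinases and factors, all tested, Mef2a, a transcription factor that p38 phosphorylates, fell by 0.31 in AD relative to WT mice over both p38 genotypes (adjusted p = 0.0109), 1 of 25 to pass against 1.03% of all genes, and 18 of 25 were lower, with a median of -0.07, against -0.03 over all genes. Nfkb1, a subunit of NF-κB, was 0.32 lower without passing (adjusted p = 0.158). Between p38KO and p38+/+ mice over both backgrounds none of the 25 passed by limma, with no unadjusted p under 0.05. The Mapk14 gene total itself differed by -0.14 there (adjusted p = 0.834), and Mapk14-203, which starts past the deleted exon, stood at 129.6 to 160.2 CPM in p38KO libraries, against 61.3 to 98.7 CPM in p38+/+ libraries.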

How the data were processed

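RNA was sequenced from sorted microglia of 16 mice. The authors aligned reads to mm10 with STAR and quantified Ensembl release 100 genes and transcripts in Partek Flow (10.0.22.0828). The deposited values are CPM, to which the authors had added 0.0001; a value of 0.0001 is written as 0 here. Low values were whole multiples of 1 read in only 73.6 to 80.0% of cases (tolerance 0.05), so no count test, and not the study's DESeq2, was run. Files per mouse column were all mapped, with 0 columns left over.

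Values were taken as log2(CPM + 0.5), and a gene or transcript was tested if it reached 1 CPM in 4 or more libraries (13912 genes and 34323 transcripts). All 16 libraries entered 1 limma-trend fit (limma 3.58.1, R 4.3.3) with 4 group means, tests were two-sided, and p was adjusted by Benjamini-Hochberg within each of 7 comparisons, at 0.05. Single members were compared by a two-sided exact permutation test, whose smallest p for 4 against 4 is 0.0286. Replicates were separate mice. The code was tested on simulated data for AD p38KO against AD p38+/+. Of 100 genes changed by 1 on the log2 scale 44 were recovered, and of 100 changed by 2, 86. Of 142 calls 12 were false, and 0 genes were called when none was changed. A member that did not pass is therefore not shown to be unchanged.

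The members and lists were chosen with earlier results of these data known. Every mouse is given for members that passed, the 2 with the smallest p in each pairwise comparison, the 3 of highest mean CPM and the 2 of largest within-group SD in each class, and Fos, Egr1, Dusp1, Zfp36, Hspb1, Hspa1a and Hspa1b. Nr4a2, Gadd45b and the rest are given by range. CPM are not per length, so levels of different genes are not compared as amounts. Alternatives were other pseudocounts, filters and scalings, a replicate block, a sex covariate and each mouse left out. File end coordinates, 1 base past the gene, were reduced by 1. Tables and plots used Python 3.11.15, pandas 2.3.3 and matplotlib 3.10.9.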

Additional observations from a re-analysis of the deposited data

Results flagged for a closer look

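Over the pairs formed by 29 tested members and 4 groups, 10 had 1 mouse that stood far from the other 3 of its group, by the ratio of its gap to the range of the group. Chance alone gives about 1 in 20, and no cause was tested.

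Among transcription factors, Fos in AD p38KO mouse 4 was low (1.42 CPM, the others 3.50 to 3.76 CPM, ratio 0.922) and Jun in the library labeled AD p38KO mouse 1 was high (280 CPM, the others 221 to 229 CPM, ratio 0.846). Nr4a1 was detected in AD p38KO mouse 2 alone of its group (2.07 CPM, the others at 0, ratio 1.00) and was low in AD p38+/+ mouse 2 (0.621 CPM, the others 2.48 to 2.62 CPM, ratio 0.952).

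WT p38+/+ mouse 4 was the low mouse for 3 genes: Junb (206 CPM, the others 329 to 360 CPM, ratio 0.841), Ier5 (178 CPM, the others 275 to 296 CPM, ratio 0.850) and Socs3 (29.9 CPM, the others 51.5 to 52.8 CPM, ratio 0.959).

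Among chaperones, Hsp90ab1 was high in WT p38+/+ mouse 1 (452 CPM, the others 244 to 267 CPM, ratio 0.854) and Hspa8 in AD p38+/+ mouse 1 (746 CPM, the others 532 to 540.2 CPM, ratio 0.953). Hspa1a was at 0 in WT p38KO mouse 2 (the others 0.944 to 1.06 CPM, ratio 0.934), and its near-identical copy Hspa1b had 1.16 CPM in the same mouse.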

How the results depend on the processing

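The 20 differences of single members followed here were those with an unadjusted p under 0.05 in the main limma fit. Only 1 of them, Egr2 in AD relative to WT mice over both p38 genotypes, passed the adjusted test. Of 609 alternatives, 606 kept the direction and the side of the threshold, and none reversed. For all but that 1 difference, keeping the side meant that it again did not pass. The call of Egr2 in AD relative to WT mice over both p38 genotypes held in all 30 alternatives (1.90 to 2.33, adjusted p 0.00262 to 0.0363). The 3 exceptions came from labeled sex as a covariate, a fit for which the share of all genes that passed is not given here. There 1 member passed between AD p38KO and WT p38KO (Egr2, 2.42, adjusted p = 0.0492) and 2 passed over both backgrounds (Dusp1, -1.18, and Jun, -0.60). With the library labeled AD p38KO mouse 1 also left out, a setting chosen after seeing the data, adjusted p were 0.146, 0.0586 and 0.0594, and none passed. The count of member transcripts that passed in AD relative to WT mice, 1 (Egr2-201), was 0 with a pseudocount of 0.1 and ran over 0 to 1 with 1 mouse left out, lost without AD p38KO mouse 1, AD p38+/+ mouse 1 or 3, or WT p38+/+ mouse 3 or 4. Libraries of different groups with the same mouse number had r from -0.13 to 0.18 over 24 pairs (median -0.0107, 2 over 0.1). Those with different numbers had r from -0.15 to 0.21 over 72 pairs (median -0.0022, 4 over 0.1). Of the 16 libraries, 9 correlated best with their own number, and whether mouse numbers pair the libraries was not tested. In every group mouse 1 was labeled female and mice 3 and 4 were labeled male, so mouse number and labeled sex cannot be fully told apart. With the replicate block, Egr2 differed by 2.10 (adjusted p = 0.0101), and the count of members passing stayed at 1. Depth limits the members under the filter, where a few reads set the values. Nr4a1, Hspa1a and Hspa1b were at or under the level of 3 reads in 4, 3 and 4 libraries.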

Other observations

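Dusp2, a nuclear MAP kinase phosphatase on the list of relatives, was higher in AD p38KO than in AD p38+/+ mice with no overlap (1.51 to 4.94 CPM against 0.414 to 1.14 CPM), by 1.28 on the log2(CPM + 0.5) scale, without passing (limma adjusted p = 0.526). It was picked out after its values were seen. Dusp1, of the same family, was lower in the same comparison without passing.

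Rgs1, a regulator of G protein signaling that is often listed with early-response genes, passed between mice labeled female and male, at 1.03 (limma adjusted p = 0.0329) with all libraries, where Jun was the 1 other gene to pass that is not linked to the sex chromosomes. Without the library labeled AD p38KO mouse 1 it stood at 1.19 (adjusted p = 0.0140), and Gpx1, Selenow and Tsc22d1, which are not members, passed too. In both fits the Rgs1 call was lost without AD p38+/+ mouse 1, WT p38KO mouse 1 or WT p38+/+ mouse 1. It was kept without WT p38KO mouse 2 (limma adjusted p = 0.0382 and 0.00816).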
